A study of Mus musculus with 64 samples.

Results

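Embryonic day 15.5 to 18.5 is the last stretch of CNS development before birth, and the 8 libraries described here, of 64 in the series, follow it in the anterior CNS of mouse embryos that lack the Polycomb gene Eed. They were chosen by genotype (labelled cKO), region (FB, the forebrain, and MB, the midbrain) and age (labelled E15 and E18), giving 4 libraries at E15 and 4 at E18 with FB and MB, replicates 1 and 2, in each. The mutants (Eed-cKO) carried floxed Eed alleles deleted by Sox1-Cre, a driver active in the CNS and not in blood vessels or blood cells, so cells of vessels and blood within the pieces keep Eed. The controls used for comparison (labelled ctrl, WT below) carried the floxed alleles without Cre and matched in region and age. The strain label of every library reads [C57BL6]Sox1-crexEDfl, while the study's methods describe a B6:129 background.

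The study cut each CNS into 4 pieces, and libraries of the same genotype, age and replicate number were read as pieces of 1 embryo, so that the 4 libraries of an age stand for 2 embryos. Deviations from the group means ran together in FB and MB of the same age and number, with r of 0.451 at E15 and 0.597 at E18 over 15101 genes, a description across genes with no test. Eed-cKO and WT libraries of the same region, age and number come from different embryos. Their r was 0.124 in FB and 0.36 in MB at E15, and 0.443 and 0.393 at E18. Such values therefore do not single out pieces of 1 embryo. Different embryos were taken at the 2 ages, so age cannot be told apart from litter or dissection, and the study names decapitation as the method of killing at E18.5. All 8 Eed-cKO libraries were male, and in the WT replicate 1 was female and replicate 2 male.

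Polycomb repressive complex 2 (PRC2) places methyl groups on lysine 27 of histone H3, a mark that keeps developmental genes silent. Eed is the subunit that binds this mark and holds the complex in its active form. In the late embryonic brain, progenitors of the ventricular zone leave the cell cycle, neurogenesis gives way to the making of astrocytes and oligodendrocyte precursors, the ventricles gain ciliated ependymal cells, and young neurons build synapses and ion channels.

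Totals ran from 39367725 to 54807632 counts per library in the 8 Eed-cKO libraries and from 41461548 to 55200581 in the 8 WT libraries of the same regions and ages. Levels are given as CPM (counts scaled to library size, with TMM over these 16 libraries), and 3 counts corresponded to 0.0547 to 0.0762 CPM in the Eed-cKO libraries. Replicate 2 of WT FB at E15 stood apart from its partner (chi-square per degree of freedom 230.5, against 13.53 to 40.59 in the other pairs), with 22595 genes detected and a summed ribosomal protein level of 21920 CPM, against 7626 to 10990 CPM in the other WT libraries. In the Eed-cKO libraries that sum ran from 7940 to 8884 CPM.

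Eed (chr7:89954654-89980976, mm10) stood at 11.5, 13.2, 12.7 and 13.3 CPM in the 4 Eed-cKO libraries at E15, given throughout in the order FB replicate 1, FB replicate 2, MB replicate 1, MB replicate 2. At E18 it stood at 11.2, 13.3, 9.71 and 12.1 CPM. WT libraries held 27.6 to 45.6 CPM at the 2 ages, so every Eed-cKO library lay below every WT library. Between E15 and E18 Eed did not pass the test in Eed-cKO (log2 change −0.11 ± 0.11, adjusted p = 0.434), where a change is E18 against E15 with its standard error.

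Region labels were checked with a midbrain marker. The midbrain homeobox gene En1 stood at 0.0805 and 0.131 CPM in WT FB at E15 and at 14.3 and 13.5 CPM in Eed-cKO FB, beside 34.5 and 84.1 CPM in Eed-cKO MB. The Eed-cKO FB pieces thus held RNA of a midbrain marker that stood at no more than 0.131 CPM in WT FB at that age, and En1 was higher in MB than in FB.

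A gene was called when edgeR's quasi-likelihood test, with region as a term, gave a Benjamini-Hochberg adjusted p below 0.05 and the log2 change exceeded 0.5 in size. Of 17459 genes tested, 2066 were called higher at E18 (11.8% of those tested) and 871 lower (4.99%), so that 70.3% of calls were rises. The median change over all genes was 0.0043, over called rises 0.817 and over called falls −0.685 on the log2 scale. With FB and MB counts summed per embryo, 1620 rises and 685 falls were called, and 2197 of the 2937 calls (74.8%) were shared in the same direction. Leaving out both libraries of E18 replicate 1 gave 1173 rises and 360 falls, with 1443 of the 2937 calls (49.1%) shared. Without E15 replicate 2, 1863 genes were called, and without E18 replicate 2, 3731. The 4 E15 and 4 E18 libraries did not overlap for 1511 of the called rises and 697 of the called falls, beside 34.9% of all genes tested.

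**Figure D1:**
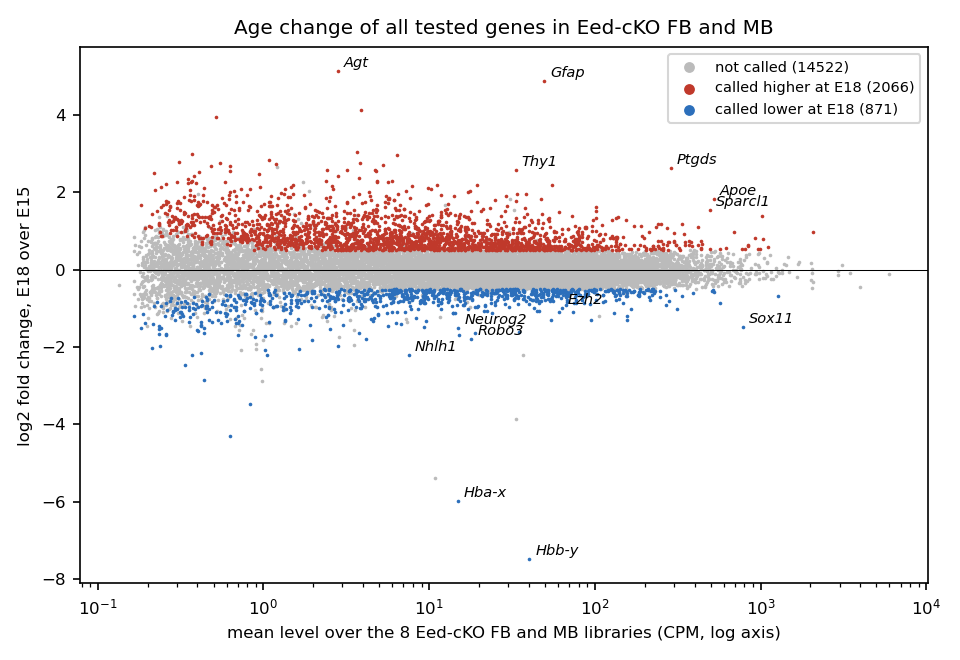
Change of every tested gene in Eed-cKO FB and MB. The horizontal axis gives the mean level of a gene over the 8 libraries in CPM on a log axis and the vertical axis its log2 change, E18 over E15, with called rises and called falls coloured and other genes grey. The 2066 rises outnumber the 871 falls, and the farthest points are the astrocyte genes Agt and Gfap above and the embryonic globin gene Hbb-y below.

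The largest rises belonged to astrocyte genes. Gfap, the intermediate filament of astrocytes (chr11:102887336-102897200), stood at 2.12, 2.1, 2.11 and 7.59 CPM at E15 and at 124.6, 19.6, 198.9 and 38.1 CPM at E18. Agt, the angiotensinogen that brain astrocytes secrete, went from 0.0771, 0.141, 0.202 and 0.167 CPM to 4.54, 0.760, 13.3 and 3.26 CPM. The rule for the largest rises required no overlap of ages within each region, and both genes also separated the ages across regions. In both, the 2 libraries of E18 replicate 1 lay above those of replicate 2 of the same region. The log2 change was 4.86 ± 0.95 (adjusted p = 0.0104) for Gfap and 5.12 ± 0.80 (adjusted p = 0.00276) for Agt. With FB and MB summed per embryo the changes were 4.83 and 5.2, and neither gene was called (adjusted p = 0.16 for Gfap and 0.0533 for Agt). Without the libraries of E15 replicate 2 the adjusted p of Gfap was 0.0554.

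Other astrocyte genes moved the same way. Aqp4, the water channel of astrocyte endfeet, stood at 17.1, 14.4, 16.6 and 31.4 CPM at E15 and at 78.0, 51.1, 137.4 and 97.4 CPM at E18 (log2 change 2.19 ± 0.25, adjusted p = 0.000933). S100b, a calcium-binding protein of glia, stood at 0.636, 0.512, 1.10 and 0.959 CPM and then at 6.42, 2.21, 13.6 and 4.07 CPM (log2 change 3.04 ± 0.47, adjusted p = 0.00221). For both genes the lowest E18 library lay above the highest E15 library. Of the 20 astrocyte markers, 16 were called higher and 0 lower, with a median log2 change of 1.30. The summed level of the list ran from 1809 to 2141 CPM at E15 and from 3053 to 5691 CPM at E18. Per-embryo sums gave 12 rises of 20, FB alone 12 and MB alone 14. In bulk tissue more cells of a type and more RNA per cell cannot be told apart.

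Beyond the marker list, the rule for the largest rises named Serpina3n, a serine protease inhibitor that marks reactive astrocytes, with 0.282 to 0.542 CPM at E15 and 10.3, 2.4, 13.2 and 3.54 CPM at E18 (log2 change 4.12 ± 0.64, adjusted p = 0.00258, and 0.0616 from per-embryo sums). Thy1, a surface protein of maturing neurons, stood at 8.02 to 11.3 CPM at E15 and at 35.5 to 84.5 CPM at E18 (log2 change 2.58 ± 0.33, adjusted p = 0.00155). Ptgds, the prostaglandin D synthase of meninges and choroid plexus, overlapped between the ages across regions, since MB at E15 already held 249 and 147 CPM. It lay higher at E18 within each region, which the rule that named it required. Its log2 change was 2.63 ± 0.66 (adjusted p = 0.0226, and 0.12 from per-embryo sums). Leaving out 3 of the 8 libraries in turn also ended the call of Ptgds (adjusted p 0.061 to 0.0692). Further large rises were Bbox1, Slc25a34, Lbhd2, Fam107a and the axonemal dynein gene Dnah12, with log2 changes between 2.59 (Dnah12) and 2.84 (Bbox1).

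**Figure D2:**
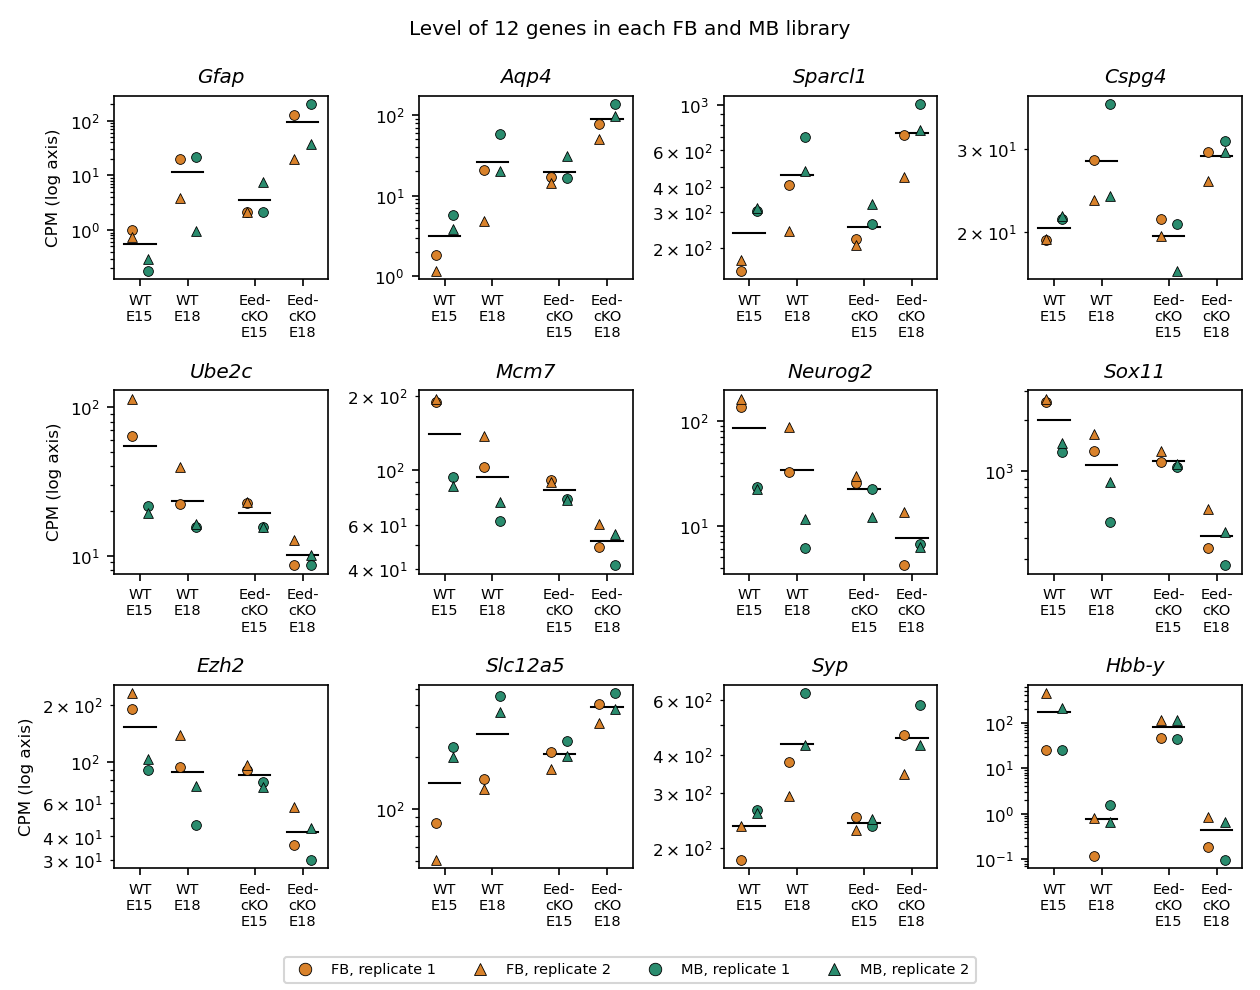
Levels of 12 genes in the 16 FB and MB libraries. Each panel gives CPM on a log axis for WT and Eed-cKO at E15 and E18, with orange for FB, green for MB, circles for replicate 1, triangles for replicate 2 and a black line for the mean of 4 libraries. In Eed-cKO, Gfap, Aqp4 and Sparcl1 lie higher and Ezh2, Sox11 and Hbb-y lower in every E18 library than in every E15 library. Sparcl1, Cspg4 and Mcm7 were chosen after their values were seen.

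Markers of the oligodendrocyte lineage held both called and uncalled genes. Of 13 oligodendrocyte precursor markers, 6 were called higher and 0 lower, with a median of 0.48. Olig1, a transcription factor of the lineage, stood at 34.0, 28, 41.6 and 37.5 CPM at E15 and at 61.5, 55.3, 80.0 and 68.7 CPM at E18 (log2 change 0.94 ± 0.08, adjusted p = 0.000333). Sox10 overlapped between the ages across regions (1.77 to 4.77 CPM, then 3.57 to 9.05 CPM) and was called higher (log2 change 1.03 ± 0.20, adjusted p = 0.00377). Of 14 markers of myelinating cells tested, 5 were called higher and 1 lower, with a median of 0.23. The rises numbered 2 without E18 replicate 1, 2 in MB alone and 3 to 5 on leaving out a single library. Ugt8a, the enzyme that makes the myelin lipid galactosylceramide, was the called fall (log2 change −0.67 ± 0.22, adjusted p = 0.0377), and leaving out 6 of the 8 libraries in turn ended that call (adjusted p 0.0603 to 0.096). The myelin gene Mbp (log2 change −0.02 ± 0.07), named after its values were seen, did not pass the test. Gpr17, a receptor of precursors about to differentiate and likewise named afterwards, stood at 0.230 to 0.667 CPM at E15 and at 0.366 to 0.861 CPM at E18 in Eed-cKO, with overlapping ages. Its WT levels went from 3.14 to 10.5 CPM at E15 to 14.2 to 37.9 CPM at E18. Over the whole precursor list 7 of 13 markers were called higher in WT (median 0.88), beside the 6 of 13 in Eed-cKO. No list member passed edgeR's test of the difference between genotypes.

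Calls among genes of cell division were falls. All 25 mitosis and G2/M genes had negative changes, with a median of −0.65, and 20 of them were called lower. Ube2c, the ubiquitin-conjugating enzyme that works with the anaphase-promoting complex, stood at 22.7, 23.1, 15.7 and 15.7 CPM at E15 and at 8.69, 12.8, 8.61 and 10.1 CPM at E18 (log2 change −0.90 ± 0.13, adjusted p = 0.00101). Bub1, a kinase of the spindle checkpoint, stood at 13.8, 16.3, 11 and 8.11 CPM and then at 6.17, 9.22, 4.44 and 6.79 CPM (log2 change −0.85 ± 0.17, adjusted p = 0.00468). The ages did not overlap for Ube2c, while for Bub1 the FB value of E18 replicate 2 lay above the MB value of E15 replicate 2. Birc5 (survivin) and Aurka, the mitotic kinase, fell by 0.80 and 0.79 on the log2 scale. The summed level of the list ran from 415.4 to 692.2 CPM at E15 and from 252.3 to 455.4 CPM at E18. The count rested on the E18 embryo used: 6 of 25 were called without E18 replicate 1 and 25 without E18 replicate 2. It was 8 without E15 replicate 1, 13 from per-embryo sums, 10 in FB alone and 5 in MB alone.

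Of 22 DNA replication genes, 9 were called lower and 0 higher (median −0.42). Uhrf1, which brings the maintenance methyltransferase to newly made DNA, stood at 35.1, 39.6, 31.7 and 26.1 CPM at E15 and at 15.8, 19.4, 13 and 20.3 CPM at E18 (log2 change −0.92 ± 0.14, adjusted p = 0.00155). Cdc6, a loader of the replicative helicase, went from 4.46 to 5.99 CPM to 2.27 to 3.62 CPM (log2 change −0.75 ± 0.13, adjusted p = 0.00229). Neither gene overlapped between the ages. Of the 24 genes the study lists as pro-proliferative, 12 were called lower and 0 higher, a list chosen by the study and therefore no independent evidence of direction, and the count was 5 without E18 replicate 1 and 3 in MB alone. Among the 10 listed as anti-proliferative, 2 were called higher and 1 lower, beside 11.8% and 4.99% of all genes. Cdkn1a, the p21 inhibitor of cyclin-dependent kinases, rose from 47.5 to 69.5 CPM at E15 to 85.5 to 128 CPM at E18 (log2 change 0.83 ± 0.16, adjusted p = 0.00447), Cdkn2b, the p15 inhibitor, rose by 0.55 ± 0.10, and the checkpoint kinase gene Chek1 fell (−0.74 ± 0.12). The call of Cdkn2b was lost without E18 replicate 1 (0.41), without MB replicate 1 of E15 (0.49) or of E18 (0.48), and in FB alone (adjusted p = 0.0505).

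The promoters of these cell cycle genes are shown because the list moved together. Cell cycle promoters are known for CCAAT boxes, for the cell cycle genes homology region (CHR) and for E2F sites, and RefSeq promoters of GRCm38.p6, 250 bases before to 50 after each start, were searched on both strands for CCAAT, for the CHR as TTTGAA or TTTAAA, and for E2F as TTTCCCGC, TTTCGCGC, TTTGCCGC or TTTGGCGC. Adjoining CCAAT matches on opposite strands can overlap, and both were counted. A promoter was present for 22 of the 25 mitosis genes (24 promoters), of which 79.2% held CCAAT, 87.5% the CHR and 75% both, while none held the E2F letters. For 18 of the 22 DNA replication genes (25 promoters) the shares were 56% for CCAAT, 24% for the CHR and 36% for E2F. Among all 32851 RefSeq promoters searched, 37.4% held CCAAT, 27.6% the CHR, 10.7% both and 2.26% E2F. Each sequence below runs in the direction of its gene with the matches in capitals. Ube2c (chr2:164769679-164769978, plus strand) shows 6 CCAAT matches and 1 CHR match, and Bub1 (chr2:127831810-127832109, minus strand) 2 CCAAT matches and no CHR match. The second Uhrf1 promoter (chr17:56304063-56304362, plus strand) holds all 3 kinds and is the one printed, while the first (chr17:56303087-56303386, plus strand) holds 3 CCAAT matches and neither of the others. Cdc6 (chr11:98907901-98908200, plus strand) holds a single E2F match. The promoter of Ezh2 (chr6:47594981-47595280, minus strand), the PRC2 methyltransferase described below, holds 3 CCAAT matches and 1 E2F match.
Ube2c: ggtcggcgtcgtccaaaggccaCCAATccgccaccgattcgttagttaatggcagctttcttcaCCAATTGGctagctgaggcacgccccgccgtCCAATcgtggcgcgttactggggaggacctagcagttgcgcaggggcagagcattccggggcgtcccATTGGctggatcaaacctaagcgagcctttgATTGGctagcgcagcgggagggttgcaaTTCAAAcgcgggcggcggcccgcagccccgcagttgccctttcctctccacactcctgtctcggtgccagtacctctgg
Bub1: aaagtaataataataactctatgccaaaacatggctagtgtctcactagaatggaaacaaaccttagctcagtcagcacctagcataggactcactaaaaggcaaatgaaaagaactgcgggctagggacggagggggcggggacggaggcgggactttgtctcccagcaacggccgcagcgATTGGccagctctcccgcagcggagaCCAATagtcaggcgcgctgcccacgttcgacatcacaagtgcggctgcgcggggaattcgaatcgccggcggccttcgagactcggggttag
Uhrf1: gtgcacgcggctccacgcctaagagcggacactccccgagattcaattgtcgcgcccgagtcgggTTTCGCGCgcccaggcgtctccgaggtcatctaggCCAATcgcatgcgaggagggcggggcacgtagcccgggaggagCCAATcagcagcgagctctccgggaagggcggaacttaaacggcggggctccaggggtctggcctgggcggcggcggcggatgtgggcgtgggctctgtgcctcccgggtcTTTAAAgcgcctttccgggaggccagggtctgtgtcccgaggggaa
Cdc6: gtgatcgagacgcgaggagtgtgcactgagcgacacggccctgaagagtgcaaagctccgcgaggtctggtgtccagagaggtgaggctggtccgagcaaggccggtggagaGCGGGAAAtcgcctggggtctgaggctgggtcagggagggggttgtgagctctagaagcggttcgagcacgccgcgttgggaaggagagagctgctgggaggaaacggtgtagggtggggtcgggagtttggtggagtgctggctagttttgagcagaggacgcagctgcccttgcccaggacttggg
Ezh2: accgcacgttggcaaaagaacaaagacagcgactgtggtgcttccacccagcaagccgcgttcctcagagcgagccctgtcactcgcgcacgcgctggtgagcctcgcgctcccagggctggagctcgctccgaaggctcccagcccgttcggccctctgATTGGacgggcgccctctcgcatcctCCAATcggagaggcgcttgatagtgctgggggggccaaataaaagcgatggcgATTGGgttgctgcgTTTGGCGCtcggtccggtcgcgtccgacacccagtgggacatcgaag

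Calls among genes that drive neurogenesis were falls. Of 15 neurogenic and intermediate progenitor factors, 9 were called lower and 0 higher, and all 15 had negative changes (median −0.68). Neurog2, a proneural transcription factor, stood at 25.4, 29.8, 22.2 and 12.1 CPM at E15 and at 4.22, 13.5, 6.71 and 6.30 CPM at E18 (log2 change −1.5 ± 0.34, adjusted p = 0.0115). Eomes (Tbr2), the T-box factor of cortical intermediate progenitors, stood at 15.9, 19.8, 5.01 and 5.92 CPM and then at 7.46, 7.58, 1.98 and 2.51 CPM (log2 change −1.24 ± 0.12, adjusted p = 0.000377). Both genes lay lower at E18 within each region. Neurod2, a factor of differentiating glutamatergic neurons, fell by 0.78 ± 0.16. Neurog1, a relative of Neurog2, fell by 1.37 ± 0.43, a call that 4 single libraries each ended when left out (adjusted p 0.0592 to 0.0864). The adjusted p of Neurod2 was 0.115 without E18 replicate 1. Among the largest falls of all genes were Nhlh1, a factor of newborn neurons, at 5.65 to 20.9 CPM at E15 and 1.54 to 3.73 CPM at E18 (log2 change −2.22 ± 0.38, adjusted p = 0.00326), and Robo3, a receptor of commissural axons, at 22.7 to 31.3 CPM and then 5.07 to 13.8 CPM (log2 change −1.79 ± 0.30, adjusted p = 0.00338). Leaving out E18 replicate 1, the change of Robo3 was −1.59 (adjusted p = 0.11). Wnt3a, a secreted signal of the dorsal midline, stood at 2.49, 3.19, 2.73 and 2.19 CPM at E15 and at 0.408, 0.645, 0.732 and 0.768 CPM at E18 (log2 change −2.04 ± 0.23, adjusted p = 0.0005). The other large falls were the histone gene H2ac24 (−2.09), Stra6l (−1.82), the steroid dehydrogenase gene Hsd11b2 (−1.79), Gm5415 (−1.72), the transcription factor gene Tal2 (−1.64) and Sinhcaf (−1.62), and the calls of Gm5415 and Tal2 were lost without 3 and 2 single libraries.

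Of 22 markers of neural progenitors and radial glia, 5 were called higher and 2 lower (median −0.09). The falls were Nes, the intermediate filament nestin, at 216, 238, 229 and 209 CPM at E15 and 106, 173, 106 and 195 CPM at E18 (log2 change −0.60 ± 0.20, adjusted p = 0.0478), and the transcription factor gene Pax6 (−0.54 ± 0.17, adjusted p = 0.0348). No fall in the list was called by edgeR without E15 replicate 1, without E18 replicate 1 or in MB alone, and 0 to 4 were on leaving out a single library. With the embryo as a random effect in limma, over all 8 libraries, 0 falls in the list were called. Hopx, a marker of outer radial glia and astrocyte precursors, stood at 16 to 21.8 CPM at E15 and at 33.3 to 41.7 CPM at E18 (log2 change 0.97 ± 0.11, adjusted p = 0.000559). Fabp7 and Slc1a3, genes shared by radial glia and astrocytes, each rose by 0.65. Tnc, an extracellular matrix glycoprotein of radial glia and astrocytes, rose by 0.62 ± 0.18, with overlapping ages and a call that 5 single libraries each ended when left out. The change of Slc1a3 was 0.44 without E18 replicate 1, under the fold needed for a call.

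Among 17 markers of young postmitotic neurons, 3 were called lower and 1 higher, beside 4.99% and 11.8% of all genes. Sox11, a transcription factor of immature neurons, stood at 1140, 1321, 1056 and 1096 CPM at E15 and at 347, 596, 276 and 434 CPM at E18 (log2 change −1.47 ± 0.19, adjusted p = 0.00122). Dcx, the doublecortin of migrating neurons, fell by 0.67 ± 0.12 (adjusted p = 0.00336) and Sox4, a relative of Sox11, by 0.56 ± 0.10 (adjusted p = 0.00284). Gap43, a protein of growing axons, rose by 0.52 ± 0.08 (adjusted p = 0.00128). Without E18 replicate 1 the changes of Dcx (−0.46), Sox4 (−0.39) and Gap43 (0.41) were under the fold needed for a call. Cortical layer transcription factors numbered 16, of which 3 were called lower and 0 higher (median −0.38). The called members Pou3f2, Bcl11b and Bcl11a fell by 0.62, 0.62 and 0.58, and without E18 replicate 1 Pou3f2 (−0.44) and Bcl11a (−0.46) were not called.

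Calls among synaptic genes were rises. Of 20 genes of synaptic vesicles and release, 6 were called higher and 0 lower (median 0.41). Syp (synaptophysin) stood at 251, 228, 236 and 248 CPM at E15 and at 463, 346, 579 and 430 CPM at E18 (log2 change 0.93 ± 0.13, adjusted p = 0.00112). Vamp1, Syn2 and Rims1, which serve vesicle fusion, vesicle clustering and the active zone, rose by 0.94, 0.83 and 0.75. Of 20 postsynaptic genes, 7 were called higher and 0 lower (median 0.37). The NMDA receptor subunit genes Grin2d, Grin2c and Grin2a rose by 0.99, 0.95 and 0.78. The calls of Grin2d and Grin2a did not hold in per-embryo sums (adjusted p = 0.152 and 0.0756), and 1 and 4 single libraries respectively ended them when left out. A further rise was that of Grm5, a metabotropic glutamate receptor gene, which went from 99.6 to 103 CPM at E15 to 162 to 174 CPM at E18 (log2 change 0.76 ± 0.05, adjusted p = 0.000115).

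Of 19 genes of GABA and glycine receptors and chloride transport, 10 were called higher and 1 lower (median 0.56). Slc12a5, which encodes the chloride exporter KCC2 of maturing neurons, stood at 214, 171, 249 and 203 CPM at E15 and at 408, 315, 471 and 382 CPM at E18 (log2 change 0.94 ± 0.12, adjusted p = 0.000776), without overlap. Glra3, a glycine receptor subunit, rose by 2.09 ± 0.22 from 0.265 to 0.367 CPM to 1.13 to 1.61 CPM. Gabra2, a GABA-A receptor subunit, was the called fall: it stood at 17.2, 20.1, 18.4 and 19.8 CPM at E15 and at 10.9, 11.2, 10.7 and 11.1 CPM at E18 (log2 change −0.76 ± 0.08, adjusted p = 0.000405). Its neighbours in the family Gabrg1 and Gabrb1 rose by 1.02 and 0.99.

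Among voltage-gated ion channels, 9 of 24 were called higher and 0 lower. Kcnq3, Hcn2 and Kcna6 rose by 0.96, 0.82 and 0.79. Of 16 transmitter identity genes tested, 8 were called higher and 0 lower, among them the glutamate transporters Slc17a8 (0.94) and Slc17a7 (0.92) and the glycine transporters Slc6a5 (0.74) and Slc6a9 (0.69). Of 15 neuropeptides tested, 9 were called higher and 0 lower (median 0.86), and Gal (galanin) stood at 3.47 to 4.02 CPM at E15 and at 6.75 to 9.42 CPM at E18 (log2 change 1.21 ± 0.13, adjusted p = 0.000474). Among the Eed-cKO libraries Avp (vasopressin) reached over 1 CPM in FB only, where it stood at 3.57 and 1.61 CPM at E15 and at 8.62 and 5.76 CPM at E18. Avp was not called without E18 replicate 1 (adjusted p = 0.122), and Slc17a7 not in per-embryo sums (adjusted p = 0.0794). The adhesion gene Cntn1 and Nefh, the heavy neurofilament, rose by 1.12 each, with 5 of 12 genes of neurofilaments and the axon initial segment called higher. Without E18 replicate 1 the counts were 4 of 20 for vesicles and release, 4 of 20 for postsynaptic genes, 5 of 24 for channels, 5 of 16 for transmitter identity, 3 of 12 for neurofilaments and the axon initial segment and 4 of 15 for neuropeptides, while 10 of the 19 inhibitory receptor and chloride transport genes were called higher.

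**Figure D3:**
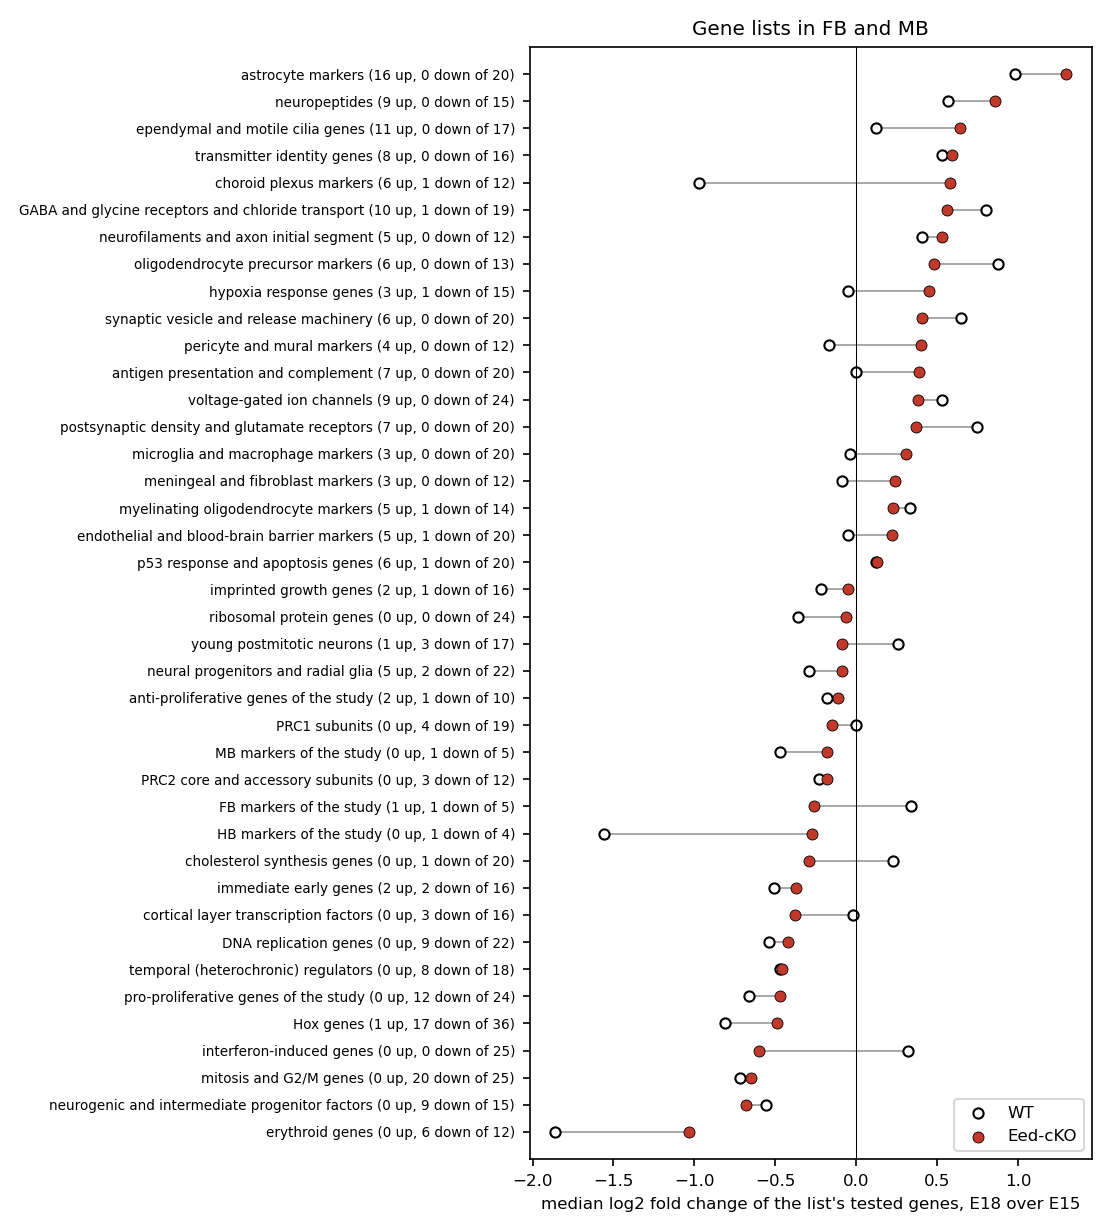
Median log2 change, E18 against E15, of 40 gene lists. Red points are Eed-cKO FB and MB and white points WT FB and MB, and the vertical line marks no change. Astrocyte markers have the highest median in both genotypes, and erythroid genes and mitosis genes lie to the left of the line in both.

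Some subunits of the Polycomb complexes were among the falls. Of 12 PRC2 core and accessory subunits, Ezh2, Mtf2 and Rbbp4 were called lower and 0 higher (median −0.18). Ezh2, the main histone methyltransferase of dividing cells, stood at 90.1, 96.5, 77.8 and 73.4 CPM at E15 and at 36, 57.5, 30.1 and 44.4 CPM at E18 (log2 change −0.99 ± 0.15, adjusted p = 0.00195), without overlap. Mtf2, an accessory subunit that binds CpG-rich DNA, fell by 0.57 ± 0.10 and Rbbp4, a histone-binding subunit shared with other complexes, by 0.56 ± 0.06. Of 19 PRC1 subunits, Cbx2, Bmi1, Rnf2 and Phc2 were called lower and 0 higher, with Cbx2, a reader of the PRC2 mark, going from 34.0 to 40.1 CPM to 17.3 to 25.9 CPM (log2 change −0.75 ± 0.12, adjusted p = 0.00146). Without E18 replicate 1 the changes of Mtf2 (−0.44), Bmi1 (−0.45), Rnf2 (−0.44) and Phc2 (−0.45) were under the fold needed for a call. Rbbp4 was not called in MB alone (−0.46). In the authors' normalised signal neither Rbbp4 (−0.39) nor Rnf2 (−0.38) was called.

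Hox genes, which pattern hindbrain and spinal cord and are silent in the normal forebrain and midbrain, were read in the Eed-cKO libraries at both ages. Their summed level ran from 656.8 to 845.8 CPM at E15 and from 496.1 to 586.8 CPM at E18, against 1.8 to 12.2 CPM in the WT libraries. Of 36 Hox genes tested, 17 were called lower and 1 higher (median −0.49). Hoxb8 stood at 15.1, 20.3, 21.2 and 36 CPM at E15 and at 4.17, 7.12, 7.29 and 9.35 CPM at E18 (log2 change −1.70 ± 0.22, adjusted p = 0.00113). Hoxb6 went from 6, 9, 8.62 and 16 CPM to 3.38, 3.69, 3.54 and 3.63 CPM (log2 change −1.42 ± 0.24, adjusted p = 0.00236). Hoxb5 and Hoxb7 fell by 1.12 and 1.11, and none of these 4 overlapped between the ages. Hoxc10, a gene of the lumbar cord, was the called rise, from 38.4 to 43.2 CPM to 52.6 to 65.6 CPM (log2 change 0.54 ± 0.06, adjusted p = 0.000405). Hoxb13, the most posterior gene of its cluster, stood at 24.6 to 31.3 CPM and then at 28.1 to 33.7 CPM and did not pass the test (log2 change 0.16 ± 0.09, adjusted p = 0.187). The adjusted p of Hoxb6 was 0.0599 without E18 replicate 1. The count of Hox falls was 8 without E18 replicate 1, 12 from per-embryo sums, 9 in FB alone and 20 in MB alone.

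Regional identity genes were read from the study's own marker lists. Of the 5 FB markers of the study, Lhx6, a factor of cortical interneurons, was called higher (log2 change 0.75 ± 0.12) and Eomes lower. En1 stood at 14.8, 16.6, 47.6 and 52.3 CPM at E18 and did not pass the test (log2 change −0.03 ± 0.26, adjusted p = 0.941). Of the 5 MB markers, Sall4 alone was called (log2 change −1.39 ± 0.31), and of 4 HB markers tested, Hoxd3 alone (−0.98 ± 0.21). Neither was called without E18 replicate 1 (adjusted p = 0.0611 and 0.127).

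Of 18 temporal regulators, genes that change with developmental time in many tissues, 8 were called lower and 0 higher (median −0.46). Hmga2, a chromatin protein of young stem cells, stood at 15.7, 16.9, 11.4 and 11.2 CPM at E15 and at 3.74, 7.4, 3.32 and 4.96 CPM at E18 (log2 change −1.48 ± 0.20, adjusted p = 0.000913). Zbtb20, a zinc finger repressor, went from 11.8 to 17.9 CPM to 4.83 to 6.68 CPM (log2 change −1.32 ± 0.17, adjusted p = 0.000725), and Igf2bp1, an RNA-binding protein of fetal cells, from 25.4 to 34.8 CPM to 9.05 to 19.8 CPM (log2 change −1.07 ± 0.18). Nfib, a nuclear factor I gene, fell by 1.01 ± 0.14. None of these 4 genes overlapped between the ages. Lin28b stood at 32.3, 36.5, 32.6 and 37.6 CPM and then at 31.0, 33.8, 23.1 and 23.6 CPM, a change of −0.31 ± 0.11 that was under the fold needed for a call. The count of 8 moved between 7 and 9 when the libraries of either embryo of either age were left out.

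Calls among ependymal genes were rises. Of 17 ependymal and motile cilia genes tested, 11 were called higher and 0 lower (median 0.64). Rsph1, a radial spoke protein, stood at 5.75, 5.72, 2.86 and 1.56 CPM at E15 and at 10.8, 8.55, 11.7 and 7.42 CPM at E18 (log2 change 1.42 ± 0.32, adjusted p = 0.00862). Hydin, a protein of the central pair of the cilium, went from 4.73, 3.96, 1.5 and 1.52 CPM to 7.17, 5.18, 7.08 and 5.17 CPM (log2 change 1.25 ± 0.30, adjusted p = 0.0109). In both genes E15 levels were higher in FB than in MB, while E18 levels overlapped between the regions. Without E18 replicate 1 the adjusted p was 0.0504 for Rsph1 and 0.0614 for Hydin. The counts were 4 in FB alone and 12 in MB alone, and 5 without E18 replicate 1. Of 12 choroid plexus markers, 6 were called higher and 1, Otx2, lower (median 0.58). Otx2 was not called without E18 replicate 1 (log2 change −0.49) or in FB alone (adjusted p = 0.0573). Ttr, the thyroxine carrier made by the choroid plexus, stood at 1502, 978, 87.2 and 147 CPM at E15 and at 2647, 1962, 559 and 282 CPM at E18 (log2 change 1.39 ± 0.34, adjusted p = 0.0172). Its levels were higher in FB than in MB at both ages, and without E18 replicate 1 its adjusted p was 0.133. No choroid plexus gene was called higher by edgeR without E15 replicate 2, and 1 was without E18 replicate 1. The share of choroid plexus in a dissected piece was not tested.

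Markers of vessel, immune and meningeal cells were read to show how their RNA moved with age. The study reports that Sox1-Cre spares blood vessels and blood cells, and deletion in meningeal cells was not tested here. Of 20 endothelial and blood-brain barrier markers, 5 were called higher and 1 lower, with Abcb1a, the drug efflux pump P-glycoprotein, going from 8.48 to 11.2 CPM to 16.1 to 24.4 CPM (log2 change 1.07 ± 0.13, adjusted p = 0.000721). Of 12 pericyte and mural markers, 4 were called higher and 0 lower. Myh11, smooth muscle myosin, stood at 3.24, 2, 2.94 and 2.27 CPM and then at 5.04, 7.42, 6.71 and 7.72 CPM (log2 change 1.38 ± 0.19, adjusted p = 0.000929). The summed level of endothelial markers ran from 862.5 to 1100 CPM at E15 and from 1216 to 1272 CPM at E18, and that of pericyte markers from 336.9 to 398.9 CPM and then from 413.1 to 462.2 CPM, so the ages did not overlap. Of 20 microglia and macrophage markers, Pf4, Lyve1 and Cx3cr1 were called higher and 0 lower, 3 of 20 beside the 11.8% of all genes, with a summed level of 271.7 to 355.0 CPM at E15 and 322.7 to 434.3 CPM at E18. Of 12 meningeal and fibroblast markers, Postn, Slc6a13 and Ogn were called higher, 3 of 12 beside the 11.8% of all genes. Their summed level was 1672, 1319, 2620 and 1359 CPM at E15 and 2073, 2093, 1574 and 2173 CPM at E18, with overlapping ages. The count was 1 in MB alone and 1 with the embryo as a random effect, and 2 to 5 on leaving out a single library. Without E18 replicate 1 none of Lyve1, Cx3cr1, Slc6a13 and Ogn was called (adjusted p 0.0926, 0.319, 0.0957 and 0.256).

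The sharpest fall of all was in embryonic globins of primitive red cells. Hbb-y (chr7:103851754-103853207) stood at 46.1, 114, 44.2 and 117 CPM at E15 and at 0.181, 0.830, 0.0976 and 0.651 CPM at E18 (log2 change −7.48 ± 0.68, adjusted p = 0.000764). Hba-x, the embryonic alpha-type globin, went from 17.6 to 39.9 CPM to 0.113 to 0.876 CPM (log2 change −5.97 ± 0.61, adjusted p = 0.000841). E15 replicate 2 held more of both than replicate 1 in each region. Per-embryo sums gave the same changes (−7.49 and −5.98) without a call for either (adjusted p = 0.0547 and 0.0606). Of 12 erythroid genes, 6 were called lower and 0 higher, and in per-embryo sums 1 was, the embryonic globin Hbb-bh1 (log2 change −4.33, adjusted p = 0.00555). The adult globin Hbb-bs stood at 4.65, 14.9, 21.1 and 15.3 CPM and then at 12.6, 92.7, 25.7 and 59.5 CPM, overlapping between the ages, and did not pass the test (adjusted p = 0.103).

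Immune genes were read in 2 lists. Of 20 genes of antigen presentation and complement, 7 were called higher and 0 lower. H2-Ab1, an MHC class II chain, stood at 1.72, 1.34, 1.34 and 1.71 CPM at E15 and at 3.65, 2.88, 3.42 and 3.26 CPM at E18 (log2 change 1.13 ± 0.17, adjusted p = 0.00117). Tap1, the peptide transporter that loads MHC class I, rose by 0.98 ± 0.18 from 9.29 to 15.4 CPM to 18.3 to 26.6 CPM. The count was 3 without E18 replicate 1 and 2 in MB alone. Of 25 interferon-induced genes, 0 were called in either direction, and their summed level was 479.4 CPM in MB replicate 2 at E15, against 125.9 to 168.5 CPM in the other E15 libraries and 138.4 to 177.4 CPM at E18. DESeq2 also called 0 of them, 0 were at an unadjusted p below 0.05, and without E15 replicate 1 10 were called lower while without E15 replicate 2 5 were called higher. Among 20 genes of the p53 response and apoptosis, 6 were called higher and 1 lower, led by the death receptor gene Fas (1.10 ± 0.22), Perp (1.07 ± 0.15), Cdkn1a (0.83) and Phlda3 (0.83). Of 16 immediate early genes, the feedback phosphatase Dusp1 and the antiproliferative gene Btg2 were called lower and Fosl2 and Arc higher, beside 4.99% and 11.8% of all genes. Leaving out both libraries of E15 replicate 2 ended the calls of Fosl2 and Arc (adjusted p = 0.0882 and 0.129) and that of Dusp1, whose change was −0.5 there against −0.82 with all libraries. Arc had a change of 0.27 without E18 replicate 1 (adjusted p = 0.404) and was not called in per-embryo sums (0.101) or on leaving out any of 6 single libraries. Dusp1 was also not called without E18 replicate 1 (adjusted p = 0.0895) or without E18 replicate 2 (0.0613), and 9 immediate early genes were called lower without E15 replicate 1. Fos, named after its values were seen, stood at 1.41, 118, 1.36 and 130 CPM at E15 and at 5.99, 2.97, 5.46 and 2.65 CPM at E18, so that the high E15 values were both of replicate 2.

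Of 20 cholesterol synthesis genes, 1 was called lower and 0 higher, beside 4.99% and 11.8% of all genes. The median of the list was −0.29, with 1 of 20 members positive, against 0.0043 over all genes. Hypoxia response genes numbered 15, with 3 called higher (Ndrg1, Ddit4 and Vegfa) and 1 lower (Kdm3a), beside 11.8% and 4.99% of all genes. Of 16 imprinted growth genes, Zim1 and Igf2 were called higher and Mest lower, shares near the 11.8% and 4.99% of all genes. Vegfa stood at the fold threshold (log2 change 0.5) and lost its call under library totals, thinning, other count filters and per-embryo sums, as well as without E15 replicate 2 (0.41) or E18 replicate 1 (0.46). Kdm3a was not called without E18 replicate 1 (−0.34), and Igf2 not without E15 replicate 2 (adjusted p = 0.0615) or E18 replicate 2 (adjusted p = 0.107). Of 24 ribosomal protein genes, 0 were called by edgeR or DESeq2, with 6 at an unadjusted p below 0.05, as were 8812 of the 17459 genes tested.

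The change was also read in each region by itself and then compared between them. FB gave 1787 calls (1334 higher) and MB 2248 (1489 higher), and the 2 sets of changes had r = 0.712 over 17459 genes, a description across genes that share embryos and scaling. The difference between the FB change and the MB change passed the test for 3 genes (0.0172% of 17459), at unadjusted p below 0.05 for 863 and in DESeq2 for 28. With the embryo as a replicate block, which pairs the FB and MB of an embryo, 34 genes passed. The 3 genes encode transcription factors, and in each the fitted change was negative in FB and positive in MB.

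Foxb1, a forkhead factor of the mammillary region and midbrain (chr9:69757710-69760940), stood at 27.6 and 22 CPM in FB and at 12.6 and 16 CPM in MB at E15. At E18 it stood at 5.31 and 6.13 CPM in FB and at 30.0 and 29.1 CPM in MB. The order of the regions was thus opposite at the 2 ages, and the difference of the changes was −3.16 ± 0.23 (adjusted p = 0.0076, and 0.0166 with the embryo as a block). Irx6, an Iroquois homeobox gene (chr8:92674402-92680080), stood at 3.18 and 2.31 CPM in FB and 1.61 and 1.35 CPM in MB at E15, and at 0.476 and 0.576 CPM in FB and 3.63 and 3.37 CPM in MB at E18. Its difference was −3.61 ± 0.35 (adjusted p = 0.0413, and 0.00586 with the block). Nkx2-1, which marks the ventral forebrain and hypothalamus (chr12:56531935-56536908), stood at 71.4 and 44.4 CPM in FB and 3.27 and 3.38 CPM in MB at E15, and at 36.8 and 25.2 CPM in FB and 25.4 and 34.0 CPM in MB at E18. The difference of −4.05 ± 0.39 passed at an adjusted p of 0.0413 and did not with the block (adjusted p = 0.164). Leaving out any single library kept Foxb1 past the threshold (adjusted p 0.0132 to 0.0492), and Irx6 was not called in any of these fits (0.0807 to 0.214). Nkx2-1 lost its call on leaving out 7 of the 8 libraries (adjusted p 0.057 to 0.416) and with no filter on counts (0.237). In WT, Foxb1 stood at 0.837 to 5.27 CPM in FB and 28.8 to 38.7 CPM in MB over both ages. The position of the cut between FB and MB in each embryo was not tested.

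**Figure D4:**
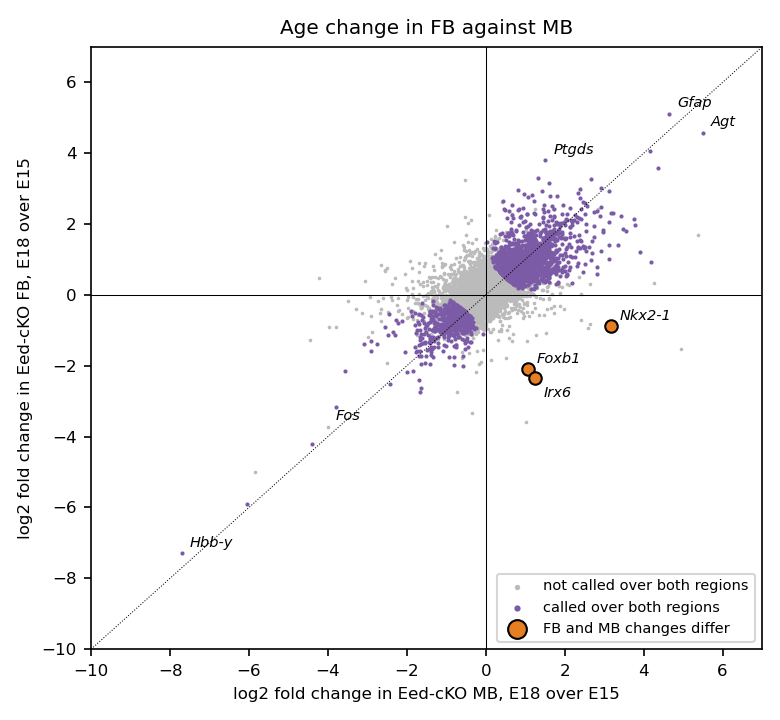
Log2 change, E18 over E15, of all tested genes in Eed-cKO, with MB on the horizontal and FB on the vertical axis, genes called over both regions in purple, genes whose FB and MB changes differed in orange and other genes in grey. Points spread along the dotted line of equal change, and Foxb1, Irx6 and Nkx2-1, the 3 genes whose difference passed the test, lie below it, with positive changes in MB and negative changes in FB.

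WT FB and MB of the same ages gave 1520 rises (8.82% of 17237 tested) and 975 falls (5.66%). Of the 2066 Eed-cKO rises, 2016 were tested in WT, where 911 were called in the same direction and 8 in the other. Of the 871 falls, 862 were tested, with 406 called in the same direction and 3 in the other. The changes in the 2 genotypes had r = 0.644 over 17197 genes, again a description. The difference between the Eed-cKO change and the WT change passed edgeR's test for 0 genes (0% of 17237), with 2001 at unadjusted p below 0.05 and a lowest adjusted p of 0.14. DESeq2 called 98 genes, 67 higher and 31 lower in Eed-cKO, among them Eomes and Gabra2 as lower. The replicate number as a block within each age, chosen after the data were seen, gave 0. Without replicate 1 of WT FB at E15 the count was 1855, in a fit where the library that stands apart was the sole one of its group, and without replicate 2 of that group it was 0.

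Values for both genotypes are therefore given side by side. Astrocyte markers numbered 16 rises of 20 in Eed-cKO and 13 of 20 in WT, and mitosis genes 20 and 21 falls of 25. The postsynaptic list had 7 rises of 20 in Eed-cKO (median 0.37) and 14 in WT (median 0.75), and the list of vesicles and release 6 and 15 of 20 (medians 0.41 and 0.65). The WT library that stands apart, FB replicate 2 at E15, had the lowest summed level of both lists among the WT E15 libraries, with 1326 CPM for the postsynaptic list (2057 to 2297 in the others) and 2155 CPM for vesicles and release (2646 to 3493), and its part in the WT rises was not tested. Ependymal genes had 11 rises of 17 in Eed-cKO and 3 in WT (medians 0.64 and 0.12). Choroid plexus markers had medians of 0.58 in Eed-cKO and −0.97 in WT. Their summed WT level was lower at E18 in MB alone, from 557.9 and 125.9 CPM to 67.03 and 85.26 CPM, while in FB it was 733.7 and 936.1 CPM at E15 and 1076 and 855.9 CPM at E18. Pericyte markers had medians of 0.40 and −0.17, and cholesterol genes −0.29 and 0.23. Young neuron markers had medians of −0.09 and 0.26, with the Eed-cKO change below the WT change in all 17, and cortical layer factors −0.38 and −0.02. These counts and medians carry no test of the difference, and no member of any list passed edgeR's test of it.

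Among single genes, Eomes fell in Eed-cKO by 1.24, while in WT it stood at 178, 180, 6.80 and 5.36 CPM at E15 and at 65.8, 118, 22.4 and 16.1 CPM at E18, lower in FB and higher in MB. The difference was −1.61 ± 0.25 (edgeR adjusted p = 0.24). Gabra2, which fell in Eed-cKO, stood at 17.9, 25.0, 16.8 and 34.9 CPM in WT at E15 and at 67.8, 43.3, 56.2 and 34.9 CPM at E18, and its difference was −1.87 ± 0.33 (adjusted p = 0.24). Ttr had a WT change of −2.85 against 1.39 in Eed-cKO (difference 4.21 ± 1.01, adjusted p = 0.29). In WT, Ttr stood at 623, 834, 393 and 9.91 CPM at E15 and at 963, 755, 3.46 and 3.21 CPM at E18, so that the lower E18 values were those of MB. H2-Ab1, with 1.13 and −0.83, differed by 1.94 ± 0.51 (adjusted p = 0.30).

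**Figure D5:**
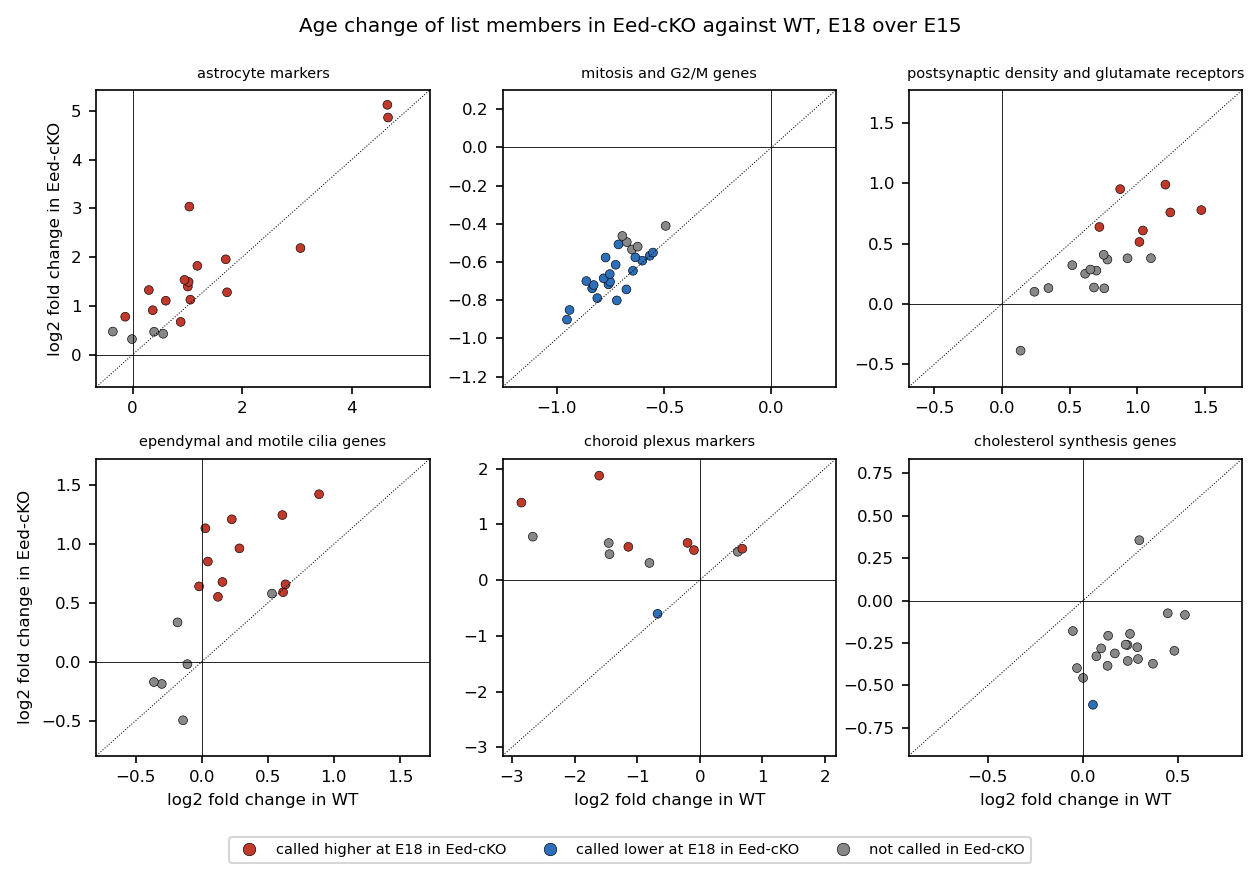
Log2 change, E18 over E15, of the members of 6 gene lists, with WT on the horizontal and Eed-cKO on the vertical axis. Each point is a gene, red if called higher and blue if called lower in Eed-cKO and grey otherwise, and the dotted line marks equal change. Of the 20 postsynaptic genes, 1 lies above the line, and of the 20 cholesterol genes 1 does, while 15 of 17 ependymal genes do.

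The posterior pieces of the same mutant embryos, HB (hindbrain) and SC (spinal cord), gave 2682 calls with 1962 rises. The difference between the anterior and the posterior change passed edgeR's test for 0 of 17443 genes (0%), with 691 at unadjusted p below 0.05 and a lowest adjusted p of 0.162. With the embryo as a replicate block 8 genes passed, and DESeq2 called 10. Astrocyte markers had medians of 1.30 in FB and MB and 1.38 in HB and SC, mitosis genes −0.65 and −0.29, Hox genes −0.49 and −0.16, and neuropeptides 0.86 and 0.22. Gfap changed by 4.86 anteriorly and 3.67 posteriorly, Gal by 1.21 and −0.21, and Hoxb8 by −1.70 and −0.73. DESeq2 called the difference of Gal (1.43, adjusted p = 0.000614). With the embryo as a block edgeR called that of Hoxb8 (−0.97, adjusted p = 0.0242), and neither fit called that of Gfap.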

How the data were processed

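RNA was measured in 64 libraries, and the 8 described here are Eed-cKO FB and MB at E15 and E18. The deposited gene counts were made by the authors from paired-end reads of total RNA with cutadapt, Hisat2 on mm10 and featureCounts over RefSeq exons without regard to strand, so a gene and an antisense partner cannot be told apart. The authors' normalised table holds a signal made with fastp, Salmon and DESeq2 size factors, and was used as an alternative only. Genes with at least 10 counts in 50% of a fit's libraries were tested with edgeR 4.0.16 (quasi-likelihood, TMM, R 4.3.3), region as a term. A call needed an adjusted p below 0.05 and a log2 change above 0.5 in size. Differences between regions, genotypes and anterior and posterior pieces were tested as interaction terms. DESeq2 1.42.0 and limma 3.58.1 (voom with the embryo as a random effect, consensus correlation 0.344, and log2 of the authors' signal plus 1) gave alternatives. The fits were run on simulated counts drawn independently for each library, which cannot test the sharing of embryos. At a true log2 size of 1 they recovered 82.7% of changed genes for age. For differences of that size they recovered 51% between regions, 45% between genotypes and 65% between anterior and posterior pieces.

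The FB and MB of an embryo were paired by genotype, age and replicate number, from the study's description of 4 pieces per CNS. E15 and E18 libraries share only a number. The gene lists and members were chosen with earlier results of these data known. Named genes are Eed, the 12 largest called rises and 12 largest called falls (mean level 1 CPM or more, no overlap of ages within FB or within MB), up to 4 called members of each list by size of change, members of the PRC2, Hox, study marker, temporal regulator and globin lists, calls numbering 5 or fewer, and called differences. Others are marked as chosen afterwards, and some genes that the rule names are not reported here. Of 700 list entries, 698 matched a gene in the counts. Promoter shares are given for lists with a promoter for over 80% of genes, which called rises (75.1%), called falls (65.9%) and all tested genes (74.9%) did not reach. Libraries of a group are 2 embryos, so p-values over 4 libraries count each embryo as a pair of samples, and depth-based floors cover counting error only.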

Additional observations from a re-analysis of the deposited data

Results flagged for a closer look

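Among 136 groups of 4 libraries looked at (28 genes and 40 summed lists, at each age in Eed-cKO), 7 held a library far from the other 3 by Dixon's ratio, about the 1 in 20 that chance gives. At E15, MB replicate 2 held 7.587 CPM of Gfap (2.101 to 2.122 in the others), and its summed interferon-induced genes reached 479.4 CPM (125.9 to 168.5 in the others). FB replicate 1 at E15 held 5.536 CPM of Hsd11b2, a steroid dehydrogenase (6.734 to 6.779). At E18, MB replicate 1 had a summed meningeal level of 1574 CPM (2073 to 2173) and a ribosomal protein level of 8506 CPM (7940 to 7955). FB replicate 2 at E18 had a summed level of GABA and glycine receptors and chloride transport of 1439 CPM (1574 to 1590), and MB replicate 2 at E18 a summed anti-proliferative level of 631.2 CPM (658.5 to 662.2).

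The change differed between FB and MB for Foxb1 (log2 difference −3.16), Irx6 (−3.61) and Nkx2-1 (−4.05) by edgeR's interaction term.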

How the results depend on the processing

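The count of 2937 age calls held within 1.5 times under library totals, DESeq2 size factors, DESeq2, other count filters, thinning to the smallest library, per-embryo sums and the embryo as a random effect. It was 7183 with no fold threshold (53.8% rises), 825 above a log2 change of 1 (82.5% rises) and 1787 in FB alone, and leaving out a library or an embryo gave 1533 to 3731. The cause was not tested. The FB and MB difference gave 28 calls in DESeq2 and 34 with the embryo as a replicate block, and 1 to 2 on leaving out a library. The genotype difference gave 98 in DESeq2 and 0 to 1855 on leaving out a library. The anterior and posterior difference gave 10 in DESeq2, 1 with no filter, 8 with the embryo as a replicate block and 0 to 1 on leaving out a library. The fitted change in MB alone was 1.07 for Foxb1 and 1.26 for Irx6, opposite to FB. With the replicate number as a replicate block between ages, which share only a number (r = 0.201 in FB and −0.177 in MB), 2999 genes were called. Over 218 named genes, 5093 of 5638 recomputed values kept their side of the threshold, 481 lost the call and 62 gained it. A further 2 changed sign with a call in either fit. Changes of sign without a call in either fit count among the 5093, as for Eed, whose values ran from −0.24 to 0.27. Of 2080 recomputed list counts, 294 moved. Detection was limited to 3 counts, 0.0547 to 0.0762 CPM.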
